A study of Arabidopsis thaliana with 36 samples.

Results

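The chloroplast genome of Arabidopsis thaliana carries its own genes for parts of the photosynthetic complexes, the plastid ribosome and the plastid RNA polymerase. The 80 loci described here are all rows of the deposited expression table whose locus identifier starts with ATCG and whose value was above 0 in at least 3 of the 36 libraries. The table holds 133 ATCG rows among 33977 genes in all. Of the other ATCG rows, 52 were at 0 in all 36 libraries and 1 was above 0 in only 1 or 2 libraries. The libraries were made from whole rosettes of Col-0 plants, the common laboratory accession, grown for 4 weeks in short days. Plants received no exposure (mock), 10 cGy or 100 cGy of gamma rays from a 137Cs source, and rosettes were harvested 1, 3, 24 or 72 h later. Each of the 12 combinations of dose and time has 3 libraries. All plants had the same genotype with no transgene or mutation named, and the labels do not say whether mock plants were handled like the exposed ones. Nothing in the labels ties a replicate to its own plant or its own exposure, so p-values measure the spread between these libraries, which may in part be technical.

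Chloroplast genes are transcribed inside the organelle by a plastid-encoded polymerase, whose promoter choice is set by sigma factors encoded in the nucleus, and by phage-type polymerases that are also encoded in the nucleus. Many chloroplast genes sit in long operons, and their transcripts are processed and stabilised by RNA-binding proteins and ribonucleases made in the cytosol. Unlike nuclear mRNA, a mature chloroplast transcript carries no stable poly(A) tail, and the short tails that are added to it mark it for breakdown. Poly(A) selection, used for these libraries, therefore keeps only a remnant of chloroplast RNA, and a chloroplast value is the share of a library that passed this selection, not the amount of RNA in the organelle. In a bulk sample of a rosette, fewer cells with many chloroplasts and less RNA per chloroplast cannot be told apart.

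The values are counts per 1000000 (CPM), which is the sum of each library, and they are not divided by gene length. A depth of 22.1 to 36.7 per library (median 31.3), in units of 1000000 reads, was read from the commonest value above 0, taken as 1 read. On this scale 3 counts correspond to 0.0818 to 0.136 CPM. The chloroplast rows held 44456 to 200490 reads per library (median 64835). The summed level of 5 nuclear rosette leaf genes (RBCS1A, RCA, LHCB1.3, LHCA1 and PSAD-1) was 44940 to 60616 CPM in all libraries. For 5 root genes (PYK10, COBL9, RHD6, EXPA7 and CASP1) the sum was 44.8 to 149 CPM, nearly all of it from PYK10, with RHD6 and EXPA7 at 0 in all libraries. For 5 flower genes (AP1, AP3, PI, AG and SEP3) it was 0.0724 to 1.05 CPM.

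The table names chloroplast loci by identifier alone, and the RefSeq annotation of the assembly TAIR10.1 lists 129 chloroplast genes under other identifiers, of which 85 are protein-coding, 37 are tRNA genes and 7 are rRNA genes. None of its gene entries carries an ATCG identifier, so loci are called by their identifiers below. For 6 of the 80 loci a RefSeq note does give a product name. These names are repeated as written in the notes and were not checked against another source, so they may be outdated. These are ATCG00430 (photosystem II reaction center protein G), ATCG00530 (CemA-like proton extrusion protein), ATCG00660 (ribosomal protein L20), ATCG00670 (the plastid-encoded ClpP, the proteolytic subunit of the Clp protease), ATCG00750 (ribosomal protein S11) and ATCG01310 (ribosomal protein L2).

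All chloroplast loci together took 0.153% to 0.608% of a library, with a median of 0.213%. The highest share was that of replicate 1 of the 10 cGy group at 3 h, and the next highest library had 0.331% (mock at 72 h, replicate 2). The lowest share was that of replicate 1 of the 100 cGy group at 72 h. At 1 h the share was 0.217% ± 0.0277 in mock, 0.196% ± 0.0195 after 10 cGy and 0.227% ± 0.0740 after 100 cGy (mean ± SD, n = 3 for each group here and below). At 3 h it was 0.254% ± 0.0741 in mock, 0.324% ± 0.246 after 10 cGy and 0.236% ± 0.0308 after 100 cGy. At 24 h it was 0.223% ± 0.0314 in mock, 0.227% ± 0.0246 after 10 cGy and 0.219% ± 0.0498 after 100 cGy. At 72 h it was 0.224% ± 0.0934 in mock, 0.239% ± 0.0632 after 10 cGy and 0.189% ± 0.0321 after 100 cGy. The libraries of the irradiated groups overlapped those of mock at every time, and within the 10 cGy group at 3 h the share varied 3.34-fold.

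**Figure D1:**
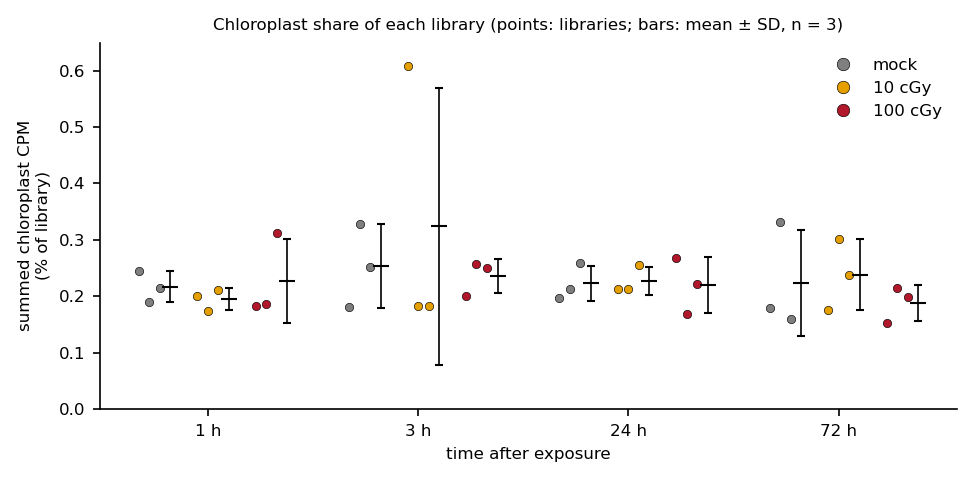
Summed CPM of the 80 chloroplast loci as a percentage of the library (vertical axis), by time after exposure and dose. Points are libraries and bars give mean ± SD (n = 3). One 10 cGy library at 3 h sits at 0.608%, and all other libraries lie between 0.153% and 0.331%.

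Replicate 1 of the 10 cGy group at 3 h was also the highest of the 36 libraries for the summed mitochondrial rows (ATMG identifiers), with 0.0131% of the library against 0.00851% in the next highest. The same held for rows with identifiers starting with ENSRNA, at 0.435% against 0.335% in the next highest. Whether the 3 values share a source was not tested. With this library left out, the log2 ratio of the mean share in 10 cGy over mock libraries at 3 h was -0.48.

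The reads were spread unevenly over the set. Across libraries, 5 loci averaged at least 100 CPM, 18 averaged 10 to 100 CPM, 30 averaged 1 to 10 CPM and 27 averaged below 1 CPM. ATCG00480 had 350 to 703 CPM, with a mean of 525 ± 97.4 CPM (SD over 36 libraries), which was on average 24.1% of the chloroplast reads. The next 4 loci form 2 pairs whose values move between the members of a pair, so they are given as sums. ATCG00950 with ATCG01180 averaged 727 CPM, between 412 CPM in mock replicate 3 at 72 h and 2950 CPM in 10 cGy replicate 1 at 3 h. ATCG00920 with ATCG01210 averaged 398 CPM, between 164 and 1855 CPM in the same libraries. The 2 pairs made up 46.4% of the chloroplast reads on average, with a range of 33.3% to 79.0%. The remaining 75 loci made up 29.6%, with a range of 14.0% to 38.8%. These shares count reads, and since the loci differ in length they do not rank the loci by number of transcripts.

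These 2 pairs varied more between libraries than the rest of the set. Their sum ran over an 8.35-fold range between libraries, while ATCG00480 ran over a 2.01-fold range and the other 75 loci together over a 2.23-fold range. Without the 2 pairs the chloroplast share was 0.0813% to 0.161% of a library, a 1.99-fold range, against a 3.98-fold range with them. The identifiers are not paired with gene types here, so whether these pairs are rRNA genes or protein-coding genes was not determined. The summed share and its range therefore cannot be read as those of chloroplast mRNA.

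**Figure D2:**
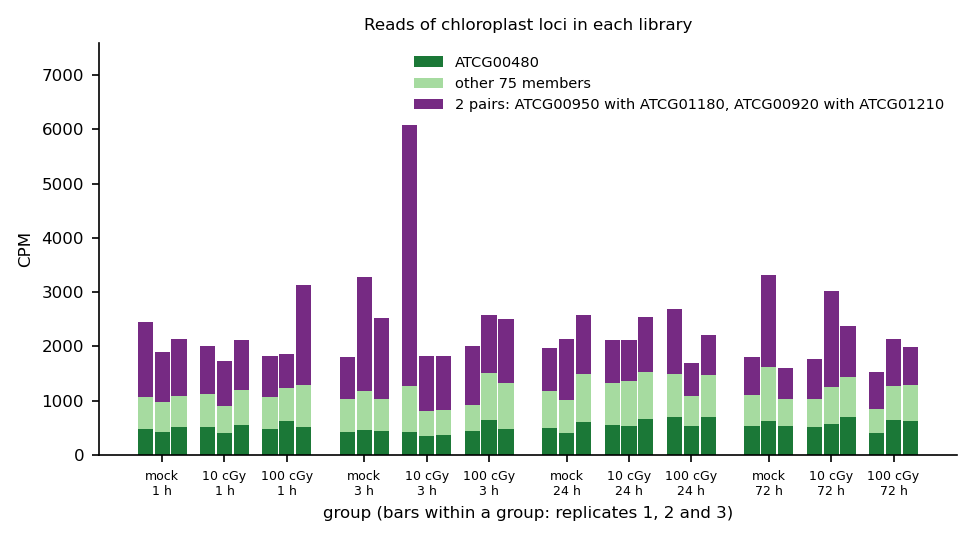
CPM of ATCG00480, of the other 75 loci and of the 2 pairs with the most reads (vertical axis, stacked from 0) in each of the 36 libraries, ordered by time, dose and replicate. The segment of the pairs varies most between libraries, and it reaches 4805 CPM in 10 cGy replicate 1 at 3 h and 2102 CPM in the next highest library.

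After these 5 loci, ATCG00470 averaged 88.6 ± 19.7 CPM and ATCG01130 averaged 60.1 ± 19.4 CPM. ATCG00490 averaged 50.4 ± 24.2 CPM, ATCG00280 averaged 41.7 ± 11.8 CPM and ATCG00270 averaged 36.7 ± 10.9 CPM. ATCG00800 averaged 35.1 ± 8.95 CPM and ATCG00020 averaged 34.3 ± 16.2 CPM (SD over 36 libraries). Neighbours in this order lay within 1 SD of each other except ATCG00470 and ATCG01130. Ratios of reads between loci varied to different degrees over the 36 libraries. ATCG00280 had 0.908 to 1.44 times the reads of ATCG00270, a 1.58-fold range, and ATCG00480 had 4.41 to 8.26 times those of ATCG00470, a 1.87-fold range. The ratio of ATCG00800 to ATCG00480 was 0.0496 to 0.0889, a 1.79-fold range, while that of ATCG00020 to ATCG00480 was 0.0296 to 0.252, an 8.52-fold range.

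Chloroplast genomes of this kind hold an inverted repeat, in which genes are present again as another copy, and reads of identical copies cannot be assigned to one of them. In RefSeq 7 symbols of chloroplast genes other than tRNA genes, counted over protein-coding and rRNA genes together, are listed 2 times. In the deposited values 9 pairs of loci, 18 loci in all, behaved as copies that share reads, by having equal values in at least 4 libraries. The 2 pairs with the most reads were equal in 4 and 16 libraries, and their first members held 19.4% to 77.8% and 17.1% to 88.8% of the sum over all libraries. For 3 other pairs the reads of a pair fell almost wholly on one member in some libraries. ATCG01310, annotated as ribosomal protein L2, and ATCG00830 were equal in 26 libraries, and in the other libraries ATCG00830 held between 0.218% and 99.8% of their sum. ATCG01310 had 0.0998 CPM in 100 cGy replicate 2 at 72 h and 54.6 CPM in mock replicate 3 at 24 h, a 547-fold range. The sum of both ran over only a 1.93-fold range, between 33.2 and 63.9 CPM.

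**Figure D3:**
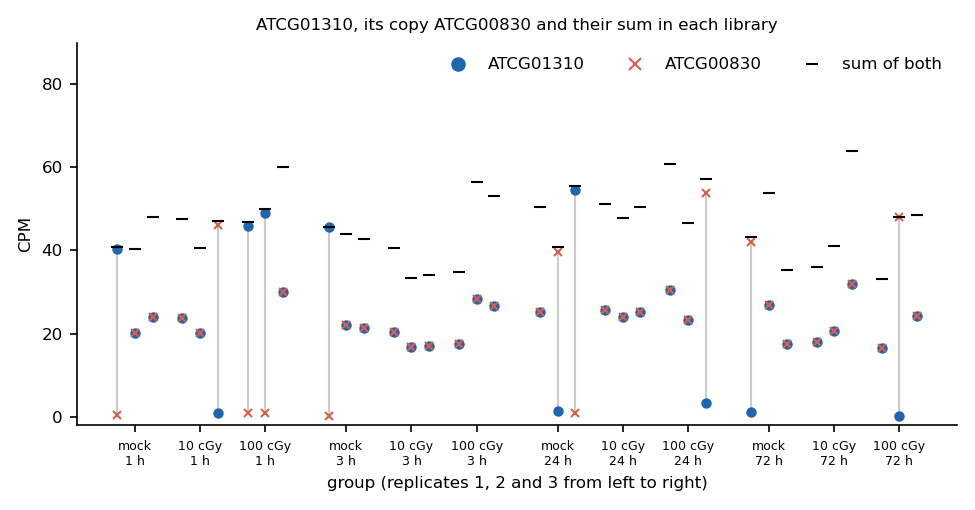
CPM (vertical axis) of ATCG01310 (circles), of ATCG00830 (crosses) and of their sum (dashes) in each library, ordered by time, dose and replicate. The 2 loci coincide in 26 libraries and part in the others, while the sum stays between 33.2 and 63.9 CPM.

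The same was seen at ATCG00900 and ATCG01240, which were equal in 34 libraries. In mock replicate 1 at 24 h all reads of this pair were on ATCG00900 (10.5 CPM, with ATCG01240 at 0), and in 10 cGy replicate 1 at 24 h all were on ATCG01240 (9.34 CPM, with ATCG00900 at 0). Their sum stayed between 6.09 and 13.6 CPM. Values of a single member of these 9 pairs are therefore uncertain, and sums are used for them wherever levels are described.

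The library with the highest share did not have more of every locus. With pairs summed, the tested loci form 47 rows, where tested means at least 1 CPM in at least 3 libraries. In 10 cGy replicate 1 at 3 h, 17 of the 47 rows were more than 2-fold above the mean of replicates 2 and 3, 25 were within 1.5-fold and 5 lay between. The highest was ATCG00920 with ATCG01210, at 1855 CPM against 339 CPM in the mean of the other replicates, a 5.48-fold difference. ATCG00350 had 32.6 against 8.33 CPM, ATCG00340 had 44.9 against 12.6 CPM, and ATCG00020 had 107 against 31.3 CPM. ATCG00490 had 131 CPM against 42.7 CPM. Among the rows within 1.5-fold, ATCG00480 had 423 against 361 CPM, ATCG00470 had 76.9 against 58.3 CPM and ATCG00670, the ClpP locus, had 2.21 against 1.89 CPM. In 8 of the 47 rows this library was above all other 35 libraries.

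A difference between these rows in the same direction, small in some groups, was present in most other groups. In each of the other 11 groups, the library with the highest share was set against the mean of its 2 replicates. The median of the 17 rows was above that of the 25 rows in 9 of 11 groups, with medians of 1.14 to 2.495 for the 17 rows and 0.919 to 1.51 for the 25 rows. In mock at 72 h replicate 2 had a median of 2.495 for the 17 rows and 1.51 for the 25 rows, and in 100 cGy at 1 h replicate 3 had 1.74 and 1.05. These were among the widest gaps. Gaps were small in 10 cGy at 1 h (1.14 and 1.09), mock at 24 h (1.32 and 1.22) and 100 cGy at 24 h (1.24 and 1.17). The order was reversed in 100 cGy at 3 h (1.211 and 1.305) and at 72 h (1.17 and 1.175). The libraries were chosen here by their share, which these loci make up, so these values are a description with no test.

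The loci with an annotated product were at modest levels. ATCG00430, whose note reads photosystem II reaction center protein G (not checked here), averaged 22.4 ± 5.68 CPM with a range of 12.0 to 33.1 CPM. ATCG00530 averaged 4.36 ± 1.28 CPM with a range of 2.56 to 8.15 CPM. ATCG00750, a protein of the small ribosomal subunit, averaged 2.88 ± 0.661 CPM with a range of 1.49 to 5.09 CPM. ATCG00670, the protease subunit, averaged 2.75 ± 0.615 CPM with a range of 1.71 to 4.40 CPM. ATCG00660, a protein of the large ribosomal subunit, averaged 0.403 ± 0.153 CPM with a range of 0.103 to 0.873 CPM, which at its lowest is near the level of 3 counts (SD over 36 libraries).

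Of the 80 loci, 63 were above 0 in all 36 libraries and 26 did not reach the level needed for a test. Among those 26, ATCG00905 and ATCG01230, a copy pair with equal values in all libraries, had the highest means, at 0.512 CPM each. ATCG00700 and ATCG00550 had the lowest means, at 0.00359 and 0.00351 CPM, and were above 0 in 4 libraries each. The 54 tested loci varied more between replicates than nuclear genes did. Their median residual SD within groups was 0.33 on the log2 scale (0.32 for the 40 loci outside copy pairs and 0.66 for the 14 loci in pairs), against 0.13 for all 18875 tested genes. ATCG00540 had the smallest, at 0.18.

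The study set irradiated plants against mock plants at each time, and no tested chloroplast locus passed the threshold in any of these 8 comparisons. The test was limma on log2(CPM + 0.5) with Benjamini-Hochberg adjustment over all tested genes at 0.05, and log2 differences of loci at a few CPM are understated by the added 0.5. At 1 h, 0 of 54 loci were called after 10 cGy, where 25.3% of all tested genes were called, and 0 of 54 after 100 cGy, where 17.6% were. At 3 h, 0 of 54 were called after 10 cGy (1.49% of all genes) and 0 of 54 after 100 cGy (12.4% of all genes). At 24 h it was 0 of 54 for both doses, with 3.29% of all genes called after 10 cGy and 0.599% after 100 cGy. At 72 h it was also 0 of 54 for both doses, with 9.38% of all genes called after 10 cGy and 1.58% after 100 cGy. The 2 doses at a time share the mock libraries. Given the larger spread of the chloroplast loci, a change of a given size was harder to detect in them than in most genes.

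At an unadjusted p under 0.05 the limma fit had few chloroplast loci in most comparisons. After 10 cGy there was 1 locus lower at 1 h (ATCG01210, a member of a copy pair), 1.85% of the 54, where 35.5% of all tested genes were at this level in either direction. At 3 h there were 10 loci lower and 0 higher, 18.5% of the 54, where 16.3% of all genes were at this level in either direction. Shares of all genes in a single direction were not taken at this level, here or below. The 18.5% therefore has no like share to be set against. At 24 h there were 1 higher and 1 lower (ATCG01240 and ATCG00900, the members of 1 copy pair), with 19.1% of all genes, and at 72 h 2 lower, with 23.6% of all genes. After 100 cGy there were 0 loci at 1 h (28.9% of all genes) and 0 at 3 h (28.6%). At 24 h there were 2 higher (14.1% of all genes) and at 72 h 1 lower (17.6%). Among the 10 loci at 3 h after 10 cGy, ATCG01110 had a log2 difference of -0.74 (SE 0.27, limma adjusted p = 0.151) and ATCG00670, the ClpP locus, had -0.48 (SE 0.19, adjusted p = 0.192). ATCG00540 at 72 h after 100 cGy had -0.50 (SE 0.15, adjusted p = 0.0739), with 3.57, 4.27 and 4.06 CPM in 100 cGy libraries and 5.50, 7.66 and 4.63 CPM in mock libraries, which do not overlap.

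The median log2 difference of the 54 loci was 0.00 at 1 h, -0.18 at 3 h, 0.15 at 24 h and -0.03 at 72 h after 10 cGy. For all tested genes it was -0.01, -0.03, 0.07 and 0.03 at the same times. After 100 cGy the median of the 54 loci was 0.08 at 1 h, 0.05 at 3 h, 0.03 at 24 h and -0.12 at 72 h, and for all tested genes it was 0.02, 0.09, -0.01 and 0.04. At 3 h after 10 cGy, 12 of 54 loci had a positive difference, and at 24 h after 10 cGy 44 of 54 did. At 72 h after 100 cGy, 11 of 54 had a positive difference. The share of all genes with a positive difference was not taken. The loci cannot be counted as independent, and 14 of the 54 are members of copy pairs. ATCG00480 had log2 differences between -0.21 and 0.35 in the 8 comparisons (SE 0.17 each), and the smallest limma adjusted p of these was 0.329, at 24 h after 100 cGy.

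**Figure D4:**
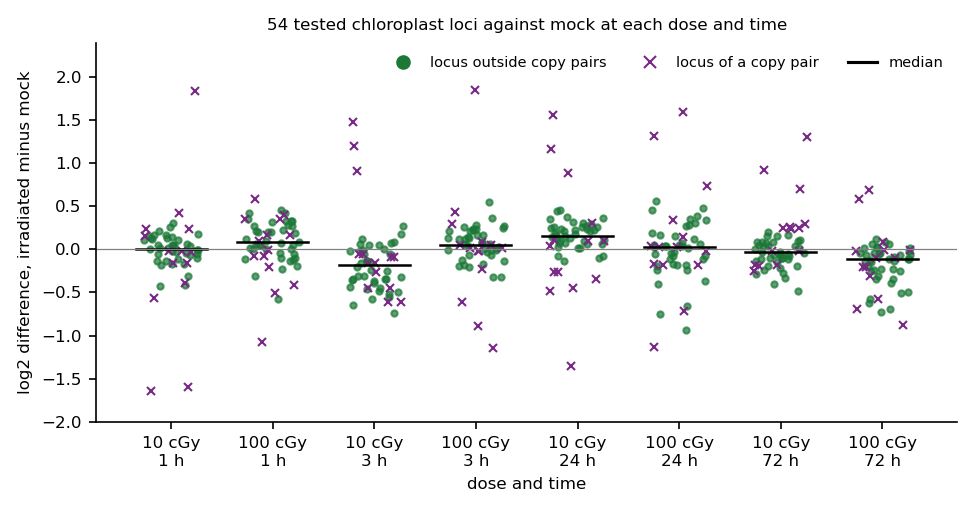
Log2 difference of irradiated minus mock (vertical axis) for the 54 tested chloroplast loci at each dose and time. Circles are loci outside copy pairs, crosses are members of copy pairs and lines are medians, which lie between -0.18 and 0.15. The crosses reach farthest from 0, as far as -1.64 and 1.85.

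Leaving out 1 library gave 1 called locus in 4 of these 8 comparisons. At 24 h after 10 cGy it was ATCG01240 (log2 difference 2.06, adjusted p = 0.0238, without mock replicate 2, and 2.21, adjusted p = 0.0135, without mock replicate 3) or its copy ATCG00900 (-1.99, adjusted p = 0.0286, without 10 cGy replicate 2). These are the copies between which reads moved in 1 mock and 1 10 cGy library of that time. At 72 h it was ATCG00190 after 10 cGy (-0.67, adjusted p = 0.0338) and ATCG00540 after 100 cGy (-0.65, adjusted p = 0.0210), both without mock replicate 3. At 3 h after 100 cGy it was ATCG00440 (0.93, adjusted p = 0.0224) without 100 cGy replicate 1, which had 1.18 CPM against 5.71 and 6.80 CPM in the other replicates. All of these p-values are from limma.

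Between the doses, 2 of 54 loci were higher after 100 cGy than after 10 cGy at 3 h, where 11.7% of all tested genes were higher and 12.6% were called in either direction. ATCG01130 had 46.9, 66.5 and 91.6 CPM in 100 cGy libraries and 39.6, 29.0 and 30.2 CPM in 10 cGy libraries, which do not overlap. The log2 difference was 1.00 (SE 0.27, limma adjusted p = 0.0153). The mock libraries of that time had 56.8, 53.7 and 43.9 CPM, within the range between the doses. ATCG00800 had 25.9, 40.9 and 39.9 CPM in 100 cGy libraries and 25.6, 20.3 and 20.1 CPM in 10 cGy libraries. The groups do not overlap, but replicate 1 of each dose was close to the other. The log2 difference was 0.66 (SE 0.22, limma adjusted p = 0.0430), and the mock libraries had 32.3, 32.1 and 25.8 CPM. In all, 9 of 54 loci (16.7%) were higher at an unadjusted p under 0.05, where 29.2% of all genes were at this level in either direction, among them ATCG00480 (0.44, SE 0.17, adjusted p = 0.0782) and ATCG00670 (0.54, SE 0.19, adjusted p = 0.0565).

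Both calls were lost without some single libraries. ATCG01130 had an adjusted p of 0.0727 without 10 cGy replicate 2, 0.0743 without 100 cGy replicate 2 and 0.105 without 100 cGy replicate 3. ATCG00800 lost its call without 10 cGy replicate 2 (adjusted p = 0.140) or replicate 3 (0.107), and without 100 cGy replicate 2 (0.213) or replicate 3 (0.163). Leaving out 100 cGy replicate 1, the library with the lowest depth, gave 14 called loci, all higher after 100 cGy, including ATCG00480 (0.56, adjusted p = 0.0276) and ATCG00470 (0.78, adjusted p = 0.00828). Of all genes, 4342 (23.0%) were then called, against 12.6% with all libraries. The number of called loci was 0 without 10 cGy replicate 2, without 100 cGy replicate 2 and without 100 cGy replicate 3, 1 without 10 cGy replicate 3, and 0 with only the 9 libraries of this time in the fit. At 1, 24 and 72 h, 0 of 54 loci differed between the doses by limma, against 0.726%, 1.13% and 0% of all tested genes. At an unadjusted p under 0.05 there was 1 locus at 1 h, 2 at 24 h and 0 at 72 h, with 9.45%, 18.9% and 9.9% of all genes at this level.

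**Figure D5:**
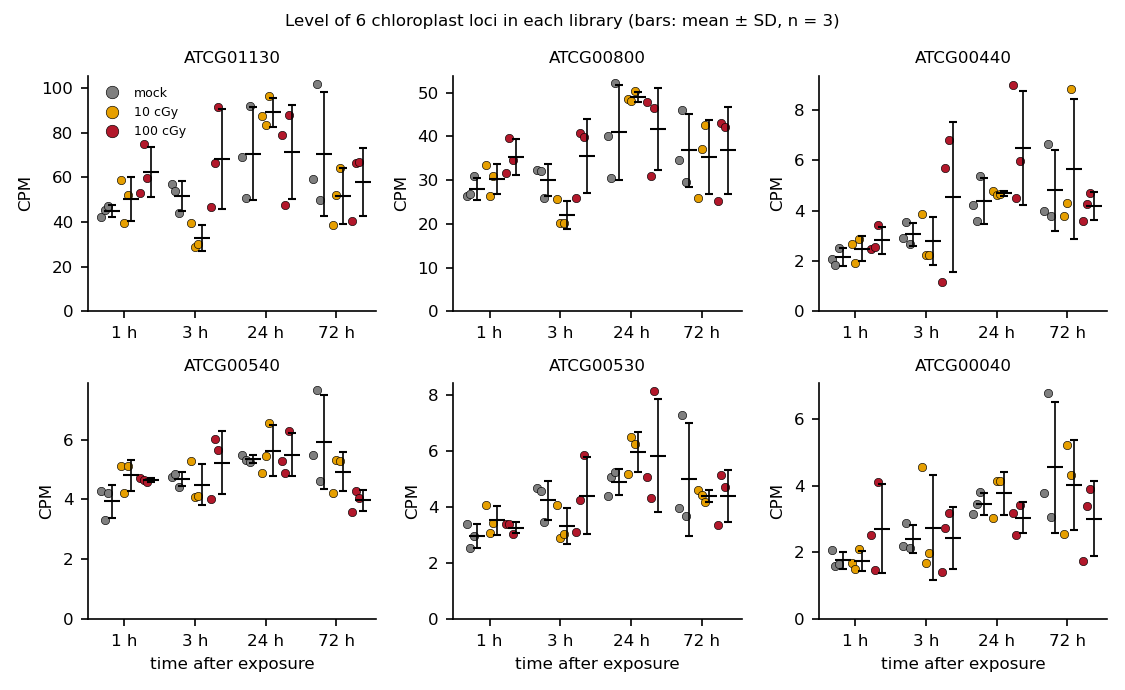
CPM (vertical axis, from 0) of 6 chloroplast loci by time after exposure and dose. Points are libraries and bars give mean ± SD (n = 3). ATCG01130 and ATCG00800 were higher after 100 cGy than after 10 cGy at 3 h, and ATCG00440, ATCG00540, ATCG00530 and ATCG00040 were higher in mock at 24 and 72 h than in mock at 1 h.

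A few loci differed between harvest times in plants that were not irradiated. Time of day, plant age and any harvest batch cannot be told apart in these comparisons. In mock plants 4 of 54 loci were higher at 24 h than at 1 h, where 20.3% of all tested genes were higher and 38.4% were called in either direction. At 72 h against 1 h, 4 of 54 were again higher, where 18.4% of all genes were higher and 33.4% were called. The 4 loci were the same at both times, and both comparisons use the same mock libraries at 1 h. With all libraries no locus was lower at either time. At 3 h against 1 h, 0 of 54 loci were called by limma, where 44.1% of all genes were called, and 1 was higher at an unadjusted p under 0.05 (ATCG00530), where 50.3% of all genes were at this level.

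ATCG00540 had 4.30, 3.31 and 4.21 CPM in mock libraries at 1 h, 5.49, 5.31 and 5.26 CPM at 24 h, and 5.50, 7.66 and 4.63 CPM at 72 h. All later libraries were above all libraries at 1 h, with log2 differences of 0.41 at 24 h (SE 0.15, limma adjusted p = 0.0301) and 0.51 at 72 h (SE 0.15, adjusted p = 0.00795). ATCG00530, the CemA-like locus, had 3.39, 2.56 and 2.98 CPM at 1 h, 4.39, 5.08 and 5.26 CPM at 24 h, and 3.98, 7.31 and 3.69 CPM at 72 h. Its log2 differences were 0.64 at 24 h (SE 0.21, adjusted p = 0.0181) and 0.61 at 72 h (SE 0.21, adjusted p = 0.0284), again without overlap.

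ATCG00040 had 2.06, 1.59 and 1.65 CPM in mock libraries at 1 h, 3.14, 3.44 and 3.80 CPM at 24 h, and 3.78, 6.79 and 3.07 CPM at 72 h. It differed by 0.81 at 24 h (SE 0.32, limma adjusted p = 0.0440) and 1.09 at 72 h (SE 0.32, adjusted p = 0.00834). ATCG00440 had 2.09, 1.83 and 2.53 CPM at 1 h, 4.21, 3.57 and 5.36 CPM at 24 h, and 3.98, 6.66 and 3.78 CPM at 72 h. It differed by 0.87 at 24 h (SE 0.35, adjusted p = 0.0499) and 0.97 at 72 h (SE 0.35, adjusted p = 0.0337). For both loci all later libraries lay above those at 1 h. At 72 h the highest value of all 4 loci was in replicate 2, which also had the highest chloroplast share of the mock libraries. With the chloroplast share as a covariate, all 4 were still called at 72 h by limma, with log2 differences of 1.11 for ATCG00040 (adjusted p = 2.55e-05), 0.52 for ATCG00540 (0.00113), 0.98 for ATCG00440 (0.0120) and 0.62 for ATCG00530 (0.0132). This covariate is made of the loci themselves.

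Without mock replicate 2 at 72 h, none of the 4 loci was called at 72 h. The log2 differences were then 0.33 for ATCG00540 (limma adjusted p = 0.103), 0.32 for ATCG00530 (0.275), 0.79 for ATCG00040 (0.0814) and 0.73 for ATCG00440 (0.170). Without mock replicate 2 at 1 h, ATCG00540 (0.0596), ATCG00530 (0.109) and ATCG00440 (0.0993) lost the call at 72 h. ATCG00530 also lost it without mock replicate 3 at 1 h (0.0614), and ATCG00440 without mock replicate 1 at 1 h (0.0775). The 3 loci called at 72 h without replicate 2 of that time were ATCG00120 (-0.50), ATCG00490 (-1.19) and ATCG01210 (-2.20), all lower. At 72 h the number of called loci was 1 without mock replicate 2 at 1 h and 6 without mock replicate 3 at 72 h, its lowest and highest values.

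At 24 h each of the 6 libraries, when left out, ended at least 2 of the 4 calls. ATCG00040 and ATCG00440 lost the call without any 1 of them, with limma adjusted p-values of 0.0549 to 0.117 for ATCG00040 and 0.0515 to 0.166 for ATCG00440. ATCG00540 lost it without mock replicate 2 at 1 h (0.165) and without replicate 1 (0.0731), 2 (0.0588) or 3 (0.0587) at 24 h. ATCG00530 lost it without mock replicate 2 at 1 h (0.0790) and without replicate 3 at 24 h (0.0622). The number of called loci at 24 h was 0 without mock replicate 2 at 1 h and 5 without mock replicate 2 at 24 h. Of those 5, ATCG00530 was one of the 4 loci above, ATCG00150 (0.55), ATCG00800 (0.70) and ATCG01130 (0.82) were higher as well, and ATCG01240, a member of a copy pair, was lower (-1.35, adjusted p = 0.0393). The number was 2 without mock replicate 1 or 3 at 1 h. It was 1 without mock replicate 1 at 24 h (ATCG00530) and 1 without mock replicate 3 at 24 h, where the locus was ATCG01240, lower (-1.50, adjusted p = 0.0163).

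No chloroplast locus showed a change of a dose's effect between successive times by limma. For 10 cGy at 3 h against 1 h it was 0 of 54 loci (14.6% of all tested genes), and for 100 cGy 0 of 54 (11.4% of all genes). At 24 h against 3 h it was 0 of 54 for 10 cGy (2.70% of all genes) and 0 of 54 for 100 cGy (2.89%). At 72 h against 24 h it was 0 of 54 for both doses, with 0% of all genes for 10 cGy and 0.0053% for 100 cGy. At an unadjusted p under 0.05, 8 of 54 loci (14.8%) had a higher 10 cGy effect at 24 h than at 3 h, where 17.6% of all genes were at this level in either direction, among them ATCG00670 (0.84, SE 0.27, adjusted p = 0.0885). Without mock replicate 3 at 24 h, ATCG01240 was called in that comparison (2.66, adjusted p = 0.0276). Each other comparison of effects had at most 5 loci (9.26%) at that level, with 8.01% to 27.2% of all genes.

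Nuclear genes for chloroplast transcription and RNA handling were read from the same fit. The list holds 25 genes, all of them tested: 6 sigma factors, 2 phage-type polymerases, 6 genes of RNA handling and 11 genes of proteins associated with the plastid-encoded polymerase. It is given by counts and medians, with no test of the list. At 1 h after 10 cGy, 9 of the 25 were lower and 0 higher than in mock, where 11.8% of all tested genes were lower, and the median log2 difference of the list was -0.15. RNE, ribonuclease E, had 43.7, 37.3 and 36.9 CPM in 10 cGy libraries and 50.7, 56.7 and 52.4 CPM in mock libraries (log2 difference -0.44, SE 0.07, limma adjusted p = 1.24e-05). SIG4, a sigma factor needed for transcription of a plastid NADH dehydrogenase gene, had 23.5, 21.6 and 24.9 CPM in 10 cGy libraries and 32.2, 33.0 and 30.5 CPM in mock libraries (-0.44, SE 0.07, adjusted p = 2.96e-05). PTAC2 (-0.34, adjusted p = 0.000895) and the sigma factor gene SIG6 (-0.21, adjusted p = 0.00232) were next by p.

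At 1 h after 100 cGy, 7 of the 25 were lower and 0 higher, where 7.37% of all genes were lower, with a list median of -0.11. SIG4 had 22.4, 23.7 and 22.8 CPM in 100 cGy libraries, below all mock libraries given above (-0.47, SE 0.07, limma adjusted p = 2.04e-05). SIG5, a sigma factor known to be induced by blue light and stress, had 209, 224 and 223 CPM in 100 cGy libraries and 402, 337 and 291 CPM in mock libraries (-0.64, SE 0.13, adjusted p = 0.000544). PTAC2 (-0.28, adjusted p = 0.00682) and SIG3 (-0.21, adjusted p = 0.0152) followed. Both doses share the mock libraries. Without mock replicate 2 the number of lower genes was 5 after 10 cGy and 3 after 100 cGy. After 100 cGy it was 4 without mock replicate 1 or 100 cGy replicate 1, and 3 without 100 cGy replicate 3. SIG3 lost its call without mock replicate 1 (adjusted p = 0.0739), 100 cGy replicate 2 (0.0513) or 100 cGy replicate 3 (0.0614), and PTAC2 without mock replicate 2 (0.0653).

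At 3 h, 0 of the 25 were called after 10 cGy, where 1.49% of all genes were. After 100 cGy 2 were higher and 1 lower, where 10.6% of all genes were higher and 1.86% lower. SIG1 had 207, 253 and 229 CPM in 100 cGy libraries and 180, 180 and 177 CPM in mock libraries (0.35, SE 0.06, limma adjusted p = 0.000776). SIG5 had 73.6, 95.8 and 76.5 CPM in 100 cGy libraries and 55.4, 57.9 and 69.5 CPM in mock libraries (0.42, SE 0.13, adjusted p = 0.0308). Its call was lost without mock replicate 1 (0.138) or 2 (0.0993), without 100 cGy replicate 2 (0.208), and after rescaling by median ratios (0.151). CSP41A, a chloroplast RNA-binding protein, was lower (-0.28, SE 0.06, adjusted p = 0.00419). After rescaling by median ratios the counts were 1 higher and 3 lower, and with only the 9 libraries of this time 1 higher and 0 lower. Without mock replicate 3 the counts were 2 higher and 3 lower, and without 100 cGy replicate 1 they were 4 higher and 1 lower.

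The change of effect between 1 and 3 h was called for 4 of the 25 after 10 cGy and 6 of the 25 after 100 cGy, all toward a higher effect at 3 h, where 5.83% and 7.83% of all tested genes were. SIG4 changed by 0.46 for 10 cGy (SE 0.10, limma adjusted p = 0.00196) and 0.49 for 100 cGy (SE 0.10, adjusted p = 0.00157). SIG5 changed by 0.60 for 10 cGy (SE 0.18, adjusted p = 0.0238) and 1.06 for 100 cGy (SE 0.18, adjusted p = 0.000164). SIG1 and RNE were called for both doses as well. The alternatives were not read for these changes of effect in the nuclear list. Their dependence on single libraries or on scaling was not tested. Between the doses at 3 h, 3 of the 25 were higher after 100 cGy than after 10 cGy and 1 was lower, where 11.7% of all genes were higher and 0.821% lower. SIG1 (0.30, SE 0.06, adjusted p = 0.00255), RNE (0.22) and SIG6 (0.16) were higher and FLN1 was lower (-0.30). After rescaling by median ratios SIG1 (0.16, adjusted p = 0.0955), RNE (0.09, 0.453) and SIG6 (0.02, 0.894) were not called, and the counts turned to 0 higher and 4 lower. With only the 9 libraries of this time they were 0 higher and 0 lower. The counts were 1 higher and 0 lower without 10 cGy replicate 1 or 100 cGy replicate 2, and 1 higher and 1 lower without 10 cGy replicate 2 or 100 cGy replicate 3.

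At 24 h after 10 cGy only SIG1 was called among the 25 (0.22, SE 0.06, limma adjusted p = 0.0389), where 3.29% of all genes were called and 2.62% were higher. It was not called after rescaling by median ratios or with only the libraries of this time, nor without 10 cGy replicate 1 or 3 or without any 1 of the mock libraries. After 100 cGy 3 were lower (PTAC10 -0.43, FLN1 -0.37 and TRXz -0.35), where 0.599% of all genes were called and 0.397% were lower. Replicate numbers were taken to pair the mock and 100 cGy libraries of this time, from correlations in these data and not from the labels. The replicate block had offsets common to all times and doses, so this pairing was not fitted. With that block only PTAC10 was called, with a limma adjusted p of 0.0503 each for FLN1 and TRXz. The number was 1 after rescaling by median ratios and 0 with only the libraries of this time, and it fell to 0 or 1 without any 1 of the 6 libraries. At 72 h after 10 cGy, 13 of the 25 were lower and 0 higher, where 4.66% of all genes were lower, with a list median of -0.21. TRXz, a thioredoxin bound to the plastid polymerase, had 31.9, 31.5 and 30.1 CPM in 10 cGy libraries and 39.2, 47.3 and 38.0 CPM in mock libraries (-0.40, SE 0.08, adjusted p = 0.00313). RPOTp, a phage-type plastid polymerase, had 75.9, 78.4 and 75.3 CPM in 10 cGy libraries and 89.9, 100.4 and 102 CPM in mock libraries (-0.34, SE 0.08, adjusted p = 0.00672). PTAC12 (-0.35, adjusted p = 0.0141) and SIG6 (-0.18, adjusted p = 0.0182) followed. PTAC12 lost its call without mock replicate 2 (0.128) or 10 cGy replicate 1 (0.0607), and SIG6 lost it without mock replicate 2 (0.0508) or 3 (0.0801) and without 10 cGy replicate 1 (0.0744) or 3 (0.0715). The number of lower genes was 2 without mock replicate 2 or 10 cGy replicate 1, 7 without 10 cGy replicate 2 and 5 without 10 cGy replicate 3. With only the 9 libraries of this time it was 5, and RPOTp (0.0555) and SIG6 (0.0894) lost the call. After 100 cGy at 72 h it was 0 of 25 by limma. In the same comparisons 0 of the 54 chloroplast loci were called.

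In mock plants the nuclear genes were also followed over time, and the comparisons share the libraries at 1 h. Here too, time of day, plant age and any harvest batch cannot be told apart. At 3 h against 1 h, 16 of the 25 were higher and 4 lower, where 24.0% of all tested genes were higher and 20.1% lower. SIG5 had 402, 337 and 291 CPM at 1 h, 55.4, 57.9 and 69.5 CPM at 3 h, 582, 464 and 428 CPM at 24 h, and 135, 99.3 and 139 CPM at 72 h. Its log2 difference was -2.48 at 3 h against 1 h (SE 0.13, limma adjusted p = 2.75e-15) and -1.46 at 72 h against 1 h (SE 0.13, adjusted p = 8.4e-10). RPOTmp (0.90), FLN1 (1.09) and FSD3 (1.02), an iron superoxide dismutase of the polymerase complex, were higher at 3 h with adjusted p-values of at most 6.42e-11. At 24 h against 1 h, 5 of the 25 were higher and 6 lower, where 20.3% of all genes were higher and 18.1% lower, among them PTAC10 (-0.59), FLN1 (-0.51), SIG1 (0.33) and RPOTp (-0.43). At 72 h against 1 h 15 were higher and 1 lower, where 18.4% of all genes were higher and 14.9% lower, with FSD3 (0.81), PTAC10 (0.59) and PTAC12 (0.58) next to SIG5 by p.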

How the data were processed

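Poly(A) RNA of whole rosettes was sequenced from directional libraries, 3 for each of 12 groups, which were taken from the sample labels. Trimmomatic 0.32, STAR 2.5.2b, RSEM 1.2.28 and the build TAIR10 are named in the submitters' processing notes without roles or order. The values used are the CPM that the authors deposited for each library. Their other table is on the natural log scale, deposited as ln(CPM + 1), and matched the first to within 4.1e-09. Of the values above 0 in a library, 87.6% to 90.4% were, within a tolerance of 0.02, whole multiples of that library's commonest value above 0. Whole reads were therefore not recovered for all genes, count tests were not used, and floors cover counting error only. How reads shared by identical gene copies were assigned is not given in the sources used here, and it bears on the copy pairs.

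Genes with at least 1 CPM in at least 3 libraries (18875) were fitted as log2(CPM + 0.5) with limma 3.58.1 in R 4.3.3 (the package data.table, version 1.17.8), 1 mean per group, an intensity trend and Benjamini-Hochberg adjustment per comparison at 0.05. The fit was tried on simulated counts with the same dispersion for all genes and no reads moving between copies. It therefore does not show how the fit performs for the more variable chloroplast loci. Tables and figures used Python 3.11.15, numpy 2.4.6, pandas 2.3.3 and matplotlib 3.10.9. A copy pair had equal values (relative tolerance 1e-06) in at least 3 libraries at 100 or more reads, or in at least 30 libraries with both loci above 0 in at least 10. Loci named in the text are the 12 with the highest mean, all called loci (at most 10 per comparison) and, of the nuclear list, up to 4 called genes per comparison. Others, such as the annotated loci, were named after their values were seen. Lists of loci by function were not applied, since the sources used here do not pair ATCG identifiers with gene names beyond 6 loci. Symbols of nuclear genes are those of common use, and RefSeq (TAIR10.1) was used for names only. No coordinates or sequences are used here. Members and lists were chosen with earlier results of these data known. Other pseudocounts (0.1 and 1), no filter, other scalings, the chloroplast share as a covariate, a replicate block, no trend, only the libraries of a time, summed copy pairs and each library left out were tried. For the nuclear list these alternatives were not read for changes of effect. At 24 h the deviations of same-numbered mock and 100 cGy libraries from their group means correlated at 0.25 to 0.34 in all 3 pairs, so these numbers were taken to pair the libraries, from the data and not the labels. In no other comparison at 1 time did all 3 pairs exceed 0.1. Correlations between replicates of a group were 0.979 to 0.994.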

Additional observations from a re-analysis of the deposited data

How the results depend on the processing

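The number of called chloroplast loci stayed within 1.5 times its value in 328 of the alternatives tried over the 21 comparisons and moved farther in 35. With all libraries the comparisons with mock at the same time and the changes of effect all had 0 calls. Most of the 328 therefore set 0 against 0, which was scored as unchanged. Numbers were compared, not loci. Without replicate 2 of mock at 72 h, the number called against 1 h was scored as unchanged, though the loci were others and lower. The log2 differences of the 6 called loci kept their sign in the alternatives run for them. With 1 library left out, called loci ranged from 0 to 1 for 10 cGy against mock at 24 h, 10 cGy against mock at 72 h, 100 cGy against mock at 3 h, 100 cGy against mock at 72 h and the 10 cGy effect at 24 h against 3 h. They ranged from 0 to 14 for 100 cGy against 10 cGy at 3 h, from 0 to 5 for mock at 24 h against 1 h, and from 1 to 6 for mock at 72 h against 1 h. With no filter beyond a value above 0, called loci were 1 for 10 cGy against mock at 1 h, 1 for 100 cGy against 10 cGy at 3 h, and 2 for mock at 3 h against 1 h. With the chloroplast share as a covariate, they were 1 for 10 cGy against mock at 1 h and at 3 h, 1 for 100 cGy against mock at 3 h, 9 for 100 cGy against 10 cGy at 3 h, 1 for 100 cGy against 10 cGy at 24 h, 1 for mock at 3 h against 1 h, 7 each for mock at 24 h and at 72 h against 1 h, and 2 for the 10 cGy effect at 3 h against 1 h. This covariate is made of the loci themselves. With only the libraries of a time, called loci were 1 for 10 cGy against mock at 1 h and 0 for 100 cGy against 10 cGy at 3 h. After rescaling by median ratios, which moved the median of all genes by up to 0.13 on the log2 scale, they were 1 for 100 cGy against mock at 72 h (ATCG00540) and 1 for 100 cGy against 10 cGy at 3 h. Without a trend in the variance they were 1 for 100 cGy against 10 cGy at 3 h. The cause of these moves was not tested.

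The log2 ratio of the summed share in 10 cGy over mock was 0.037 at 1 h without the 2 pairs with the most reads, an alternative chosen after seeing the data, and between -0.48 (without 10 cGy replicate 1) and 0.64 (without 10 cGy replicate 3) at 3 h with 1 library left out. With 1 library left out this ratio also changed sign in the other comparisons with mock except 10 cGy at 1 h, as between -0.23 and 0.20 for 100 cGy at 1 h, by less than the spread between replicates. Apart from mock and 100 cGy at 24 h, taken as paired from the data, the libraries share only a number. Correlations of the deviations of same-numbered libraries were -0.43 to 0.41, above 0.1 in 10 of 36 pairs, 7 of them at 24 h. The fit with a replicate block called 2 loci for 100 cGy against 10 cGy at 3 h and 4 loci each for mock at 24 h and 72 h against 1 h, as without it, and 0 in each other comparison. The offsets of the block are common to all times and doses, so pairs within 24 h were not fitted.

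An alternative without rRNA and tRNA genes was not run, since the identifiers are not paired with gene types here. Of the 27 loci with means below 1 CPM, all but ATCG00380 were left out of the test by the filter. Whether depth or the spread between libraries limits the results more was not tested.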
